A study of Mus musculus with 6 samples.

Results

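The glutathione transferases and the antioxidant enzymes of MIN6B1 cells were examined after silencing of circHIPK3, the circular transcript of the Hipk3 gene. The group was defined by gene symbol and held 48 genes: 18 glutathione transferases (GSTs), 6 glutathione peroxidases, catalase, 3 superoxide dismutases, 6 peroxiredoxins with sulfiredoxin, 4 thioredoxin genes, 5 genes of glutathione synthesis and recycling and 4 genes of the NRF2 axis. They had 66 of the 39429 probes on the array. For 45 of the 48 genes at least 1 probe exceeded background clearly on every array of 1 treatment or both, and these 45 are among the 25772 genes and unnamed transcripts tested. The other 3 were Gpx3, the secreted glutathione peroxidase, whose probe was well above background on 1 circHIPK3 siRNA array and on 0 siGFP arrays, and Gpx7 and the membrane-bound transferase Mgst1, whose probes were well above background on none of the 6 arrays.

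MIN6B1 is a mouse insulinoma line that secretes insulin and stands in for pancreatic beta cells. The cells received a small interfering RNA (siRNA) against circHIPK3 or, as the control, an siRNA against green fluorescent protein (siGFP), and total RNA was taken at 48 h. Each treatment had 3 samples, each on its own single-colour array, and the medium of both treatments contained fetal calf serum and the thiol reductant beta-mercaptoethanol. Nothing in the labels says that replicates came from different cultures, so the p-values reflect the spread among these samples alone, and that spread may be technical.

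GSTs join the tripeptide glutathione to reactive electrophiles, and glutathione peroxidases use glutathione to reduce peroxides. Superoxide dismutases turn superoxide into hydrogen peroxide, which catalase, peroxiredoxins and glutathione peroxidases then remove, while thioredoxin and glutathione reductases restore the spent thiols with NADPH. The transcription factor NRF2, which its partner KEAP1 holds in check, drives many of these genes through antioxidant response elements. Rodent beta cells are known for little catalase and glutathione peroxidase, and peroxiredoxins and thioredoxin take on much of their peroxide removal.

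The array signal is given as log2 of the background-subtracted intensity relative to the 75th percentile of the same array, so 0 is that percentile. This 75th percentile lay between 2939 and 3669 intensity units, and 77.7% to 83.5% of probes were well above background. All 10 beta cell markers, among them Ins1, Ins2 and Pdx1, were well above background on every array, and their summed log2 signal was 8.45 to 8.62 in the circHIPK3 siRNA arrays and 8.53 to 8.64 in the siGFP arrays. These ranges overlap, as did those of the delta, PP, acinar, duct, fibroblast, endothelial and leukocyte lists, and the part of such cells in the results was not tested. Gcg, the glucagon gene of alpha cells, was at 3.37, 3.69 and 4.32 in the circHIPK3 siRNA arrays, against 4.31, 3.96 and 4.88 in the siGFP arrays (change -0.59 ± 0.30 SE, adjusted p = 0.292). Its groups overlap, and its part in the results was not tested either. Hipk3 itself was at 2.64 ± 0.21 in the circHIPK3 siRNA arrays and at 2.81 ± 0.14 in the siGFP arrays (SD, n = 3 each; change -0.17 ± 0.14 SE, adjusted p = 0.505 over all probes). A second Hipk3 probe changed by -0.31 ± 0.12 (SE, adjusted p = 0.211 over all probes), and the groups overlapped on both. Whether the Hipk3 probes see the circular RNA is not known here. In the file headers the 3 siGFP arrays and circHIPK3 siRNA replicate 1 share 1 scan date, and circHIPK3 siRNA replicates 2 and 3 share another. Arrays with the same scan date are called a slide here, and no slide identifier was used. A difference between these slides is only partly separable from the treatment.

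Gstk1 was lower after circHIPK3 siRNA at an adjusted p under 0.05. Gstm7 also had an adjusted p under this threshold, with a higher signal, but its probe was kept only because of the circHIPK3 siRNA arrays, was well above background on 0 of the 3 siGFP arrays, and turned direction in the authors' deposited value table, so its p is no valid test. The other 43 of the 45 measured genes did not pass. In such bulk samples, less RNA of a gene per cell and fewer cells that make it cannot be told apart. With Gstm7 the calls are 2 of 45 genes, 4.44%, against 1.18% of all 25772 (0.640% lower and 0.535% higher). With probes required above background on all 6 arrays the count was 1 of 43, 2.33%, against 0.97% of all genes. At an unadjusted p under 0.05 there were 13 genes, which is 28.9% against 21.1% of all. Of these 9 were lower, 20.0% against 6.51% of all, and 4, Gstm7 among them, were higher, 8.89% against 14.6% of all. The shares over all genes differ with signal, and 37 of the 45 genes lay among the 12886 of higher signal. Of those 12886, 14.3% had such a p, 8.96% lower and 5.37% higher. All 3 circHIPK3 siRNA arrays lay outside the range of the siGFP arrays for 17 genes, or 37.8% against 25.9% of all. For 11 of them, 24.4%, the circHIPK3 siRNA arrays were lower, against 9.38% of all, and for 6, 13.3%, with Gstm7 among them, they were higher, against 16.6% of all. Among the 12886 genes of higher signal these shares were 13.7% lower and 10.4% higher. The part of brightness in these counts was not tested.

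The median change of the 45 genes was -0.07 on the log2 scale, and that of all genes was 0.08. The median relative to all genes was thus -0.15, with 33 of 45 below the all-gene median. Of the 12886 genes of higher signal, among which 37 of the 45 lay, 8765 were also below it. Of the 6443 of highest signal 4827 were below it, as were 23 of the 24 antioxidant genes there. Array by array, the median of the 45 genes minus that of all genes was -0.14, -0.12 and -0.23 in the circHIPK3 siRNA arrays, against -0.01, -0.03 and 0.01 in the siGFP arrays. These values are relative to each gene's siGFP mean, which by construction puts the siGFP arrays near 0. Median scaling in place of the 75th percentile moved the median of all genes to -0.02. It shifts the change of every gene by the same amount, so the relative value of -0.15 stayed by construction. Quantile normalization gave -0.10 relative to all genes. The signal of the probes ran alongside this shift: 24 of the 45 genes lay among the 6443 genes of highest signal, in which the median change of all genes was -0.01, against 0.28 among the 6443 of lowest signal. The median of those 24 genes was -0.14, and the part of brightness in the shift was not tested otherwise.

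**Figure D1:**
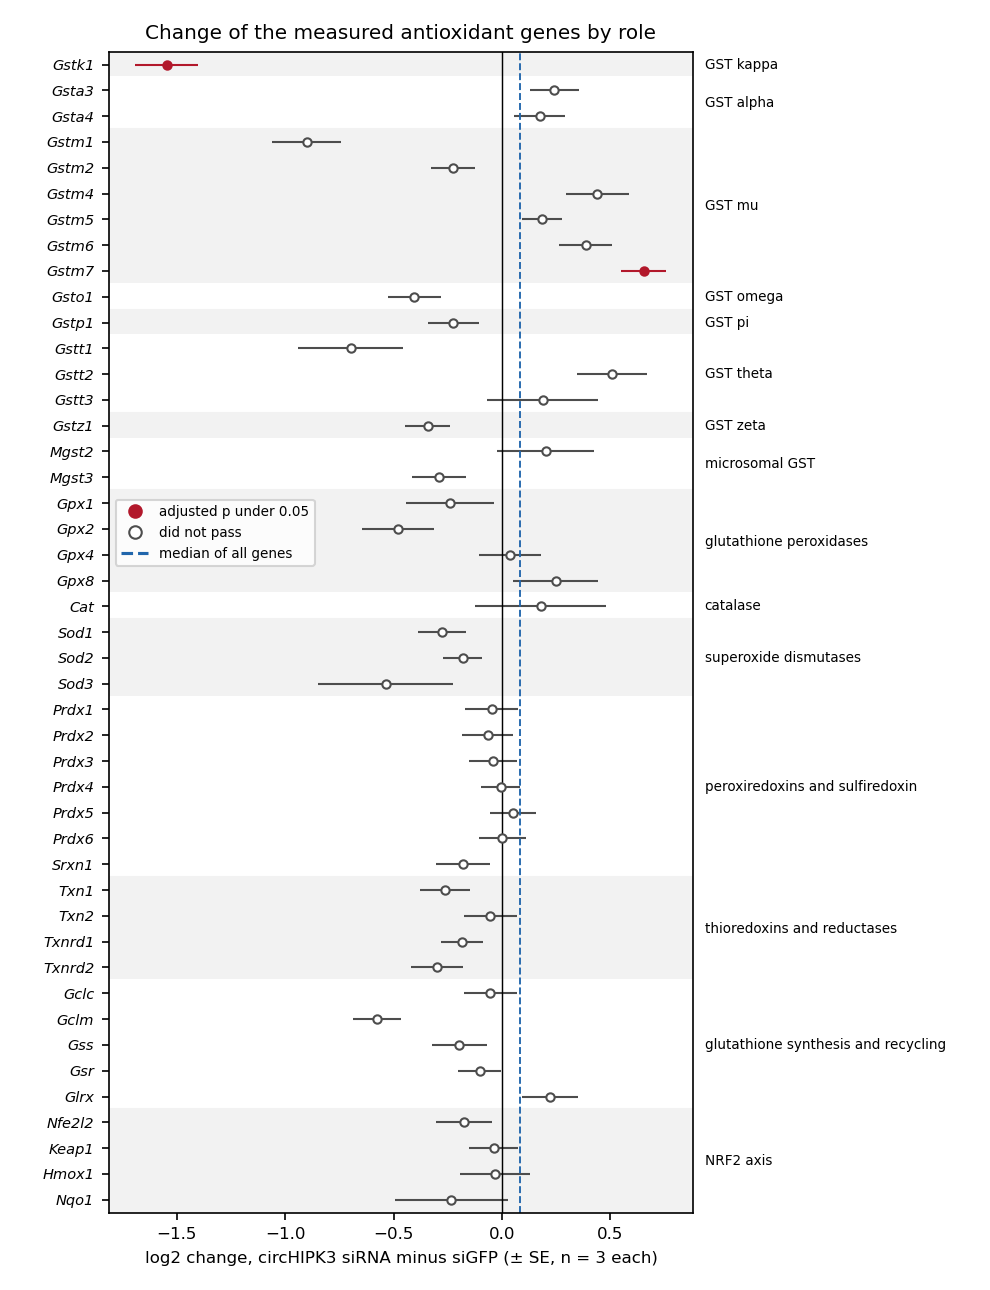
Log2 change of the 45 measured genes (circHIPK3 siRNA minus siGFP, points with SE bars, n = 3 arrays each), ordered by role. Gstk1 at -1.55 and Gstm7 at 0.66 (-0.11 in the authors' deposited value table) are filled (adjusted p under 0.05, for Gstm7 against a control level not well above background), and the dashed line is the median of all genes at 0.08.

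**Figure D2:**
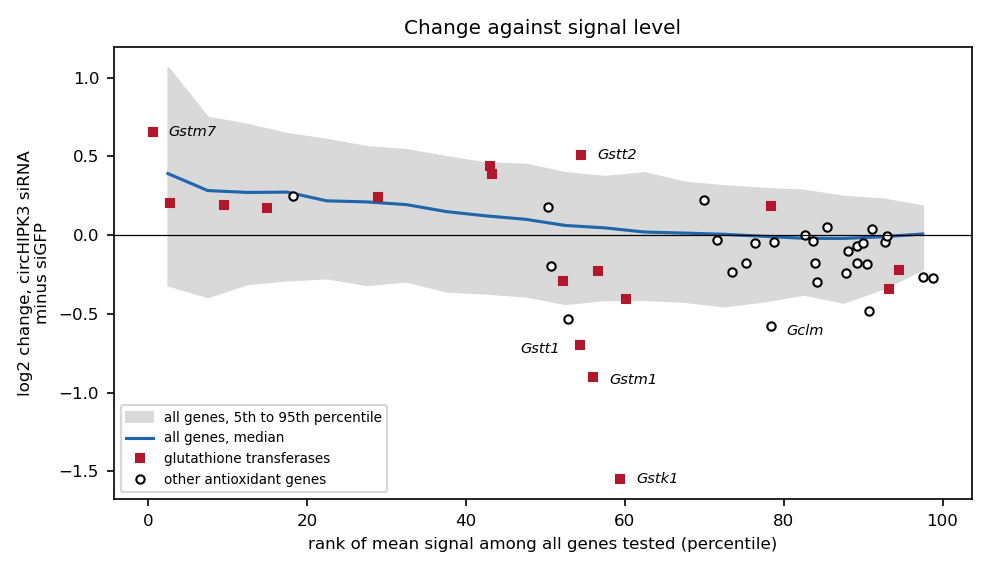
Log2 change (circHIPK3 siRNA minus siGFP) against the rank of mean signal in percent among the 25772 genes tested, with GSTs as squares, the other antioxidant genes as circles, the median of all genes as a line and their 5th to 95th percentile in grey. The line descends from 0.39 at the dimmest end to -0.02 at rank 87.5 and lies at 0.01 at the brightest end, and Gstk1 lies at -1.55 near rank 59.4.

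Gstk1 had the largest change of the 45 genes. It encodes the kappa class GST, which is found in mitochondria and peroxisomes and differs in fold from the cytosolic classes. Its signal was -1.40, -1.40 and -1.72 in the circHIPK3 siRNA arrays, against 0.18, -0.19 and 0.13 in the siGFP arrays. The groups were 1.21 apart at their nearest arrays, and the spread within each (SD 0.18 and 0.20) was far smaller than that gap. The change of -1.55 ± 0.14 (SE) is a 2.92-fold lower signal (adjusted p = 0.0275), and the exact permutation test gave 0.10, the smallest p that 3 against 3 arrays allow. On the first slide alone, 1 circHIPK3 siRNA array against 3 siGFP arrays, the change was -1.44 and did not pass (adjusted p = 0.148), and the lone array there is assumed to vary like the others. Leaving out any single array other than circHIPK3 siRNA replicate 1 also took the adjusted p above 0.05, up to 0.149, with a change of -1.66 to -1.44. Tmem139 and Casp2, the next 2 genes beyond Gstk1 in the RefSeq order, changed by 0.13 ± 0.12 and -0.07 ± 0.14 (SE), and neither passed.

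The sequence around the start of Gstk1 is shown because this gene carries the largest difference. It spans 250 bases before to 50 after the start (RefSeq, GRCm38.p6, chr6:42245685-42245984, plus strand), with 55.3% G and C and 13 CpG steps. It held no antioxidant response element core, the motif that is written in capitals where it occurs.
Gstk1 promoter: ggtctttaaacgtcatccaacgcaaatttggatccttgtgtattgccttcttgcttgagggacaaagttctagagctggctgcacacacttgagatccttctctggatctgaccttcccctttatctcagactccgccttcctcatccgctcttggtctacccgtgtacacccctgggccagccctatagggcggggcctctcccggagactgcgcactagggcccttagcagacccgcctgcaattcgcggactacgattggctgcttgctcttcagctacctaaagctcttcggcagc

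The GSTs of the mu class, cytosolic enzymes encoded side by side in the mouse, had changes on both sides of 0. For all 6 measured mu genes the circHIPK3 siRNA arrays did not overlap the siGFP arrays, 2 being lower and 4 higher, against 25.9% of all genes without overlap (9.38% lower and 16.6% higher). Of the 4 higher genes Gstm7 turned direction with the processing, and no mu gene with a detectable control level passed the all-gene test. Their coding sequences are close to each other and the probe sequences were not used here, so signal from a near-identical relative cannot be told apart from the named gene. Gstm1, Gstm4, Gstm6 and, below, Gstt1 are described array by array although the rule for named genes did not select them. They were chosen after their values were seen.

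Gstm1 gave -1.46, -1.29 and -1.90 in the circHIPK3 siRNA arrays, against -0.68, -0.59 and -0.69 in the siGFP arrays. All 3 circHIPK3 siRNA arrays were lower, by at least 0.61, and replicate 3 was the lowest. The change was -0.90 ± 0.16 (SE), 1.87-fold lower, and missed the threshold (adjusted p = 0.0508). A second Gstm1 probe changed by -0.88 ± 0.12 (SE), and with every kept probe tested on its own it passed (adjusted p = 0.0330), as did the first (adjusted p = 0.0483). Gstm2 was also lower in every circHIPK3 siRNA array, by -0.23 ± 0.10 (SE, adjusted p = 0.256), and its second probe, whose groups overlapped, gave -0.28 ± 0.15 (SE).

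Gstm4 gave -2.15, -2.59 and -2.10 in the circHIPK3 siRNA arrays, against -2.64, -2.76 and -2.76 in the siGFP arrays. Gstm6 gave -2.32, -2.16 and -2.33 in the circHIPK3 siRNA arrays, against -2.45, -2.73 and -2.78 in the siGFP arrays. Both were higher in every circHIPK3 siRNA array, by only 0.05 and 0.12 at the nearest arrays, and their changes were 0.44 ± 0.15 and 0.39 ± 0.12 (SE, adjusted p = 0.164 and 0.151). Second probes gave 0.27 ± 0.14 for Gstm4 and 0.24 ± 0.12 for Gstm6 (SE), with overlapping groups. A further, dimmer Gstm6 probe gave 0.08 ± 0.18 (SE), also with overlap. Gstm5 was higher by 0.19 ± 0.09 (SE, adjusted p = 0.286). These directions of Gstm4, Gstm5 and Gstm6 were the same under all 5 ways of scaling the arrays.

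Gstm7 lay near the detection limit. Its 10-spot probe gave -6.72, -6.68 and -6.47 in the circHIPK3 siRNA arrays, against -7.27, -7.26 and -7.31 in the siGFP arrays. It was well above background on all 3 circHIPK3 siRNA arrays and on 0 siGFP arrays, so the control level is only a bound. With the lowest detectable signal of each siGFP array as the control level, the signal was at least 1.24-fold higher in this scaling, a bound that did not hold under other processing. The fitted change, 0.66 ± 0.10 (SE, adjusted p = 0.0451), sets the probe against a level that was not measured, and its p is given as a description. The change was 0.56 on the first slide alone (adjusted p = 0.243). It was 0.34 under quantile normalization, 0.06 after another background correction (normexp) and -0.11 in the authors' deposited value table, on the same probe, and none of these passed (adjusted p = 0.113, 0.860 and 0.773). The adjusted p was above 0.05 on leaving out any array other than circHIPK3 siRNA replicate 1. A second probe of the gene was well above background on 2 circHIPK3 siRNA arrays and 1 siGFP array. It gave -6.81, -7.47 and -6.47 in the circHIPK3 siRNA arrays, against -8.71, -5.33 and -7.94 in the siGFP arrays. Its groups overlapped, and a siGFP array was the highest.

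In the RefSeq order the cluster runs Gstm5, Gstm7, Gstm6, Gstm3, Gstm2, Gstm1, Gstm4. The 3 consecutive genes Gstm3, Gstm2 and Gstm1 had changes below 0, and the genes on either side had changes above 0. Gstm3, which is not one of the 48 genes, changed by -0.48 ± 0.09 (SE, adjusted p = 0.0571). Within each array, the log2 signal of Gstm1 minus that of Gstm4 was 0.69, 1.29 and 0.21 in the circHIPK3 siRNA arrays, against 1.96, 2.17 and 2.07 in the siGFP arrays. Relative to Gstm6 it was 0.85, 0.87 and 0.43 in the circHIPK3 siRNA arrays, against 1.77, 2.14 and 2.10 in the siGFP arrays. Both differences were smaller in every circHIPK3 siRNA array, with mean changes of -1.34 and -1.29. That separation follows from Gstm1 being lower, and Gstm4 and Gstm6 higher, in every circHIPK3 siRNA array. The 4 gene pairs compared in this way were chosen after their values were seen, because the genes had moved apart, and the exact permutation p of each was 0.10, the smallest possible, so the differences are a description.

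**Figure D3:**
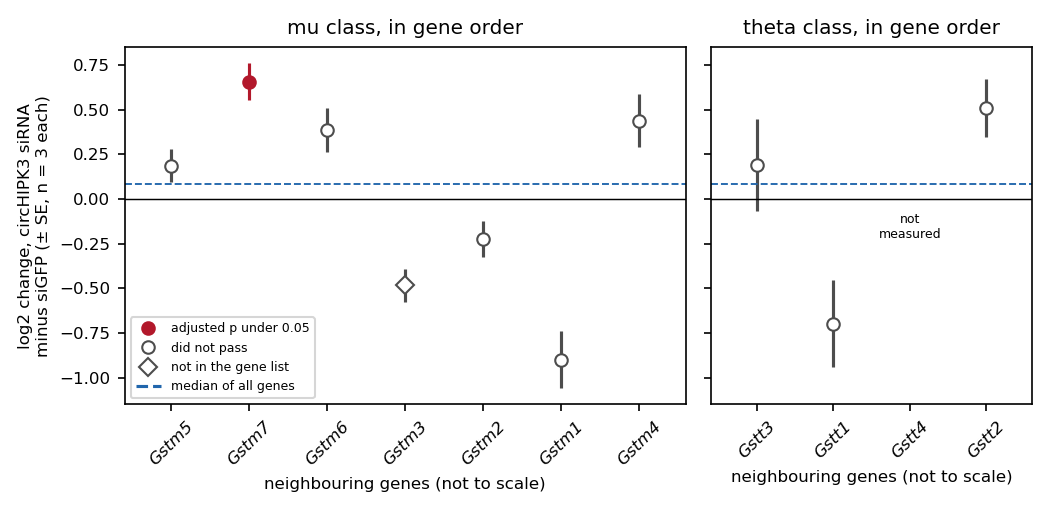
Log2 change (circHIPK3 siRNA minus siGFP, points with SE bars, n = 3 arrays each) of the mu class and theta class genes in RefSeq gene order, spacing not to scale. Gstm3, Gstm2 and Gstm1 lie below 0 between neighbours above 0, Gstt1 at -0.70 and Gstt2 at 0.51 lie on opposite sides, and only Gstm7 is filled (adjusted p under 0.05), a gene near background whose change was -0.11 in the authors' deposited value table.

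The start of Gstm1 is printed for comparison with that of Gstk1, as the other GST with a change of over 0.8 and arrays that do not overlap. It is 1 of 2 windows that RefSeq gives for the gene (GRCm38.p6, chr3:108017769-108018068, minus strand, printed along the gene), with 54.7% G and C, 8 CpG steps and the letters TATAAA.
Gstm1 promoter: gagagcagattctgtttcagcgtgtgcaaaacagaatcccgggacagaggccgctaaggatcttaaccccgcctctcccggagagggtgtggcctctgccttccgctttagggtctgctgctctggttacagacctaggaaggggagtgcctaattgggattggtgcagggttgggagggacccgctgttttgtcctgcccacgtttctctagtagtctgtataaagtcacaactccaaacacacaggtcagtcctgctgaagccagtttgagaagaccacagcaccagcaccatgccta

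The theta class, whose enzymes act on small halogenated compounds and on peroxides, also had changes on both sides of 0. Gstt1 gave -1.43, -1.30 and -2.14 in the circHIPK3 siRNA arrays, against -0.92, -0.65 and -1.22 in the siGFP arrays. Gstt2 gave -0.72, -1.10 and -1.22 in the circHIPK3 siRNA arrays, against -1.36, -1.48 and -1.72 in the siGFP arrays. Gstt1 was lower and Gstt2 higher in every circHIPK3 siRNA array, by 0.086 and 0.145 at the nearest arrays. Their changes were -0.70 ± 0.24 and 0.51 ± 0.16 (SE, adjusted p = 0.175 and 0.150), and neither passed. Within an array, Gstt1 minus Gstt2 was -0.72, -0.20 and -0.92 in the circHIPK3 siRNA arrays, against 0.45, 0.83 and 0.50 in the siGFP arrays. These groups could not overlap, because Gstt1 was lower and Gstt2 higher in every circHIPK3 siRNA array. Gstt3 changed by 0.19 ± 0.26 (SE), with overlapping groups and a sign that turned under 3 of the 4 other scalings.

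Among the remaining GST classes no gene passed. Gsto1, the omega enzyme that reduces dehydroascorbate, was lower in every circHIPK3 siRNA array (-0.41 ± 0.12 SE, adjusted p = 0.139), and so was Gstz1, the zeta enzyme of tyrosine breakdown (-0.34 ± 0.10 SE, adjusted p = 0.142). Gstp1, the pi class enzyme, changed by -0.22 ± 0.12 (SE, adjusted p = 0.311) with overlapping groups, and by -0.29 ± 0.11 (SE) on a second probe on which the circHIPK3 siRNA arrays were all lower. Its near-identical copy Gstp2 cannot be told apart from it here. Of the alpha class, whose enzymes act on products of lipid peroxidation, Gsta3 gave -4.01, -3.92 and -3.75 in the circHIPK3 siRNA arrays, against -4.02, -4.25 and -4.14 in the siGFP arrays. Every circHIPK3 siRNA array of Gsta3 was higher, but only by 0.009 at the nearest arrays (0.24 ± 0.11 SE, adjusted p = 0.270). Gsta4 changed by 0.17 ± 0.12 (SE) and turned sign under 2 of the 4 other scalings.

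Of the microsomal transferases, which are membrane proteins, Mgst3 gave -1.42, -1.75 and -1.79 in the circHIPK3 siRNA arrays, against -1.29, -1.45 and -1.36 in the siGFP arrays. The groups overlapped by 1 array, and the change was -0.29 ± 0.13 (SE, adjusted p = 0.241), with -0.36 ± 0.14 (SE) and no overlap on a second probe. Mgst2, near background, changed by 0.20 ± 0.23 (SE). Over all 17 measured GSTs, 8 had a change below 0 and 5 above 0 under all 5 scalings, and the sign of 4 turned, all of them above 0 in the scaling used here: Gsta4, Gstm7, Gstt3 and Mgst2. Each of these 4 lay among the 6443 genes of lowest signal.

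**Figure D4:**
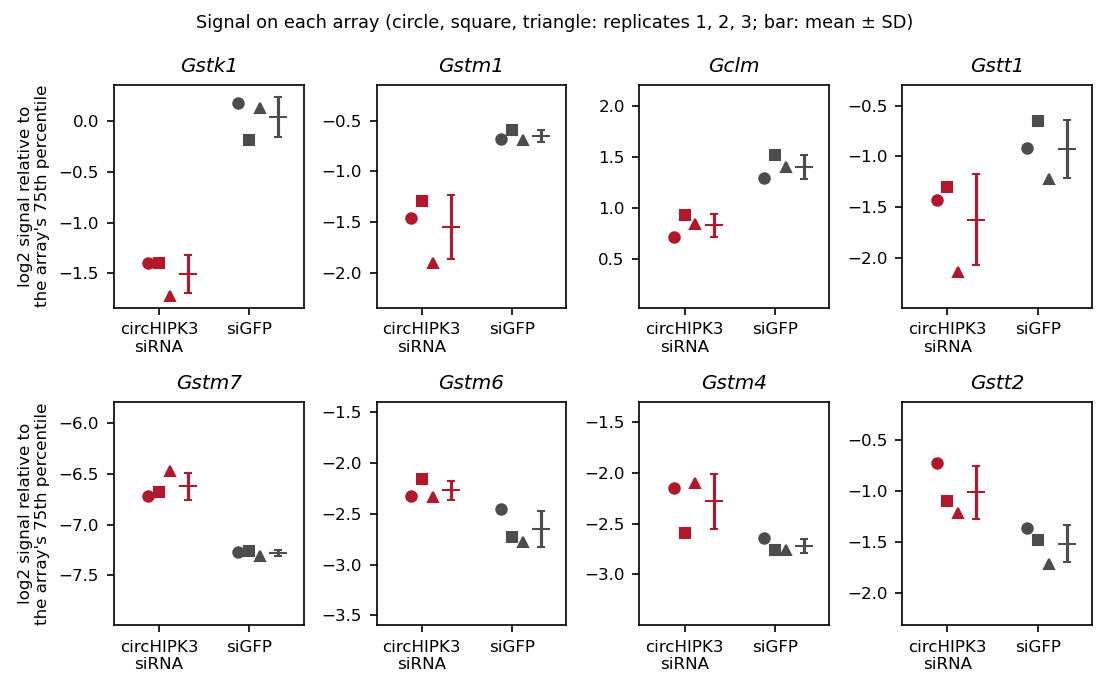
Log2 signal relative to the array's 75th percentile for 8 genes, 1 point per array (circle, square and triangle are replicates 1, 2 and 3), with the mean ± SD (n = 3) at the side and each panel on its own axis of equal length. In the circHIPK3 siRNA arrays Gstk1, Gstm1, Gclm and Gstt1 lie below all siGFP arrays, and Gstm7, Gstm6, Gstm4 and Gstt2 lie above them, Gstm7 turning to -0.11 in the authors' deposited value table.

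Glutathione itself is made by glutamate cysteine ligase, of which Gclc is the catalytic and Gclm the modifier subunit, and by glutathione synthetase (Gss). Gclm gave 0.71, 0.93 and 0.84 in the circHIPK3 siRNA arrays, against 1.29, 1.52 and 1.40 in the siGFP arrays. All 3 circHIPK3 siRNA arrays were lower, by at least 0.36. The change of -0.58 ± 0.11 (SE), 1.49-fold lower, missed the threshold (adjusted p = 0.0573), and it was -0.69 on the first slide alone. Gclc, in contrast to its partner, gave 1.05, 0.96 and 0.66 in the circHIPK3 siRNA arrays, against 0.92, 0.98 and 0.94 in the siGFP arrays, with overlap and a change of -0.05 ± 0.12 (SE, adjusted p = 0.826). Within an array, Gclm minus Gclc was -0.34, -0.03 and 0.18 in the circHIPK3 siRNA arrays, against 0.37, 0.54 and 0.47 in the siGFP arrays, which do not overlap. This pair was also chosen after its values were seen (exact permutation p = 0.10, the smallest possible). Gss (-0.20 ± 0.13), the glutathione reductase Gsr (-0.10 ± 0.10) and the glutaredoxin Glrx (0.22 ± 0.13, all SE) did not pass, and their groups overlapped. On a second Gsr probe the circHIPK3 siRNA arrays were all lower, by 0.09 at the nearest arrays (-0.18 ± 0.09 SE, adjusted p = 0.294 over all probes).

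The start of Gclm is printed because it holds an antioxidant response element core and belongs to the gene with the lowest p of its class (RefSeq, GRCm38.p6, chr3:122245307-122245606, plus strand). It has 79.7% G and C and 48 CpG steps. The capitals mark the core, which lies on the opposite strand and starts 134 bases before the gene.
Gclm promoter: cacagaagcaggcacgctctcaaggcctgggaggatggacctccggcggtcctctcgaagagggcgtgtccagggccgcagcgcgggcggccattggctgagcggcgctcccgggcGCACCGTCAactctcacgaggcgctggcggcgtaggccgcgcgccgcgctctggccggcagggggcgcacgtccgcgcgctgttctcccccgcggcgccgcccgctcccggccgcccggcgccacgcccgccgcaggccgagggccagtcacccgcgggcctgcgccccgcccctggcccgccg

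No glutathione peroxidase passed, and for all 4 measured the arrays of the treatments overlapped. The mean signal of Gpx1, Gpx2, Gpx4 and Gpx8 ranked at 87.8, 90.7, 91.1 and 18.3 percent among the genes tested. Catalase ranked at 50.4 percent, and the peroxiredoxins at 78.8 (Prdx3) to 93.0 percent (Prdx4). Gpx2, a peroxidase best known from the gut lining, gave 2.60, 2.32 and 2.34 in the circHIPK3 siRNA arrays, against 3.18, 2.60 and 2.92 in the siGFP arrays. The highest circHIPK3 siRNA array met the lowest siGFP array, and the change was -0.48 ± 0.17 (SE, adjusted p = 0.172). Gpx1, the common cellular peroxidase, changed by -0.24 ± 0.20, Gpx4, which reduces lipid hydroperoxides, by 0.04 ± 0.14 with a sign that turned under median scaling, and Gpx8 of the endoplasmic reticulum by 0.25 ± 0.20 (all SE). Catalase (Cat) spread more between arrays of a treatment than between treatments, with -2.04, -1.74 and -1.08 in the circHIPK3 siRNA arrays, against -1.55, -1.51 and -2.33 in the siGFP arrays (change 0.18 ± 0.30 SE). A second, dimmer Cat probe gave -0.17 ± 0.19 (SE).

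The superoxide dismutases all had changes below 0, and none passed. Sod1, the cytosolic copper and zinc enzyme, gave 4.84, 4.79 and 4.75 in the circHIPK3 siRNA arrays, against 5.16, 4.90 and 5.16 in the siGFP arrays. Every circHIPK3 siRNA array was lower, by 0.05 at the nearest arrays, and the change was -0.28 ± 0.11 (SE, adjusted p = 0.214). Sod2, the mitochondrial manganese enzyme, changed by -0.18 ± 0.09 (SE, adjusted p = 0.289), also with no overlap. Sod3, the secreted form, changed by -0.54 ± 0.31 (SE, adjusted p = 0.348), and its arrays overlapped.

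No peroxiredoxin passed. All 6, which cover cytosol (Prdx1, Prdx2 and Prdx6), mitochondria (Prdx3 and Prdx5) and endoplasmic reticulum (Prdx4), had overlapping groups, changes between -0.07 and 0.05, and standard errors of 0.09 to 0.12. The signs of Prdx4, Prdx5 and Prdx6 turned with the scaling. The probes of a gene did not always match: a second Prdx1 probe changed by -0.33 ± 0.09 (SE, adjusted p = 0.106 over all probes) with no overlap, against -0.05 ± 0.12 (SE) for the first. For Prdx6 the 3 further probes gave 0.17, 0.17 and -0.18. Srxn1, the sulfiredoxin that repairs overoxidised peroxiredoxins, gave 1.55, 1.68 and 1.72 in the circHIPK3 siRNA arrays, against 1.84, 1.63 and 2.01 in the siGFP arrays. Its groups overlapped, and the change was -0.18 ± 0.12 (SE, adjusted p = 0.419).

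The 4 thioredoxin genes had changes below 0, from -0.30 to -0.05, and none passed. Txnrd2, the mitochondrial thioredoxin reductase, gave 1.84, 1.56 and 1.5 in the circHIPK3 siRNA arrays, against 1.95, 1.85 and 2.00 in the siGFP arrays. The nearest arrays were only 0.012 apart, and the change was -0.30 ± 0.12 (SE, adjusted p = 0.217). Its cytosolic counterpart Txnrd1 was also lower in every circHIPK3 siRNA array (-0.18 ± 0.10 SE, adjusted p = 0.307). The thioredoxins Txn1 (-0.26 ± 0.11) and mitochondrial Txn2 (-0.05 ± 0.12, both SE) had overlapping groups.

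No gene of the NRF2 axis passed or had groups free of overlap. Nfe2l2, which encodes NRF2, gave 0.80, 0.87 and 0.50 in the circHIPK3 siRNA arrays, against 0.78, 1.03 and 0.88 in the siGFP arrays. The change was -0.18 ± 0.13 (SE, adjusted p = 0.457). Keap1 changed by -0.04 ± 0.11, with a sign that turned under 2 of the 4 other scalings, and the classical NRF2 targets Hmox1, the inducible haem oxygenase, and Nqo1, a quinone reductase, by -0.03 ± 0.16 and -0.23 ± 0.26 (all SE). Of these 4 genes Nqo1 varied most within a treatment, at 0.05, 0.91 and 0.58 in the circHIPK3 siRNA arrays, against 0.40, 1.15 and 0.69 in the siGFP arrays.

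The promoters were searched for the core of the antioxidant response element, the site that NRF2 binds with small MAF proteins, to see which genes carry it close to their start. The core was read as TGACNNNGC on either strand in windows of 300 bases. It overlaps the AP-1 motif TGACTCA in part, as in Prdx1. RefSeq windows were matched for 41 of the 48 genes, and 10 of these, 24.4%, held the core, against 14% of 27025 genes. No window was matched for Gsta4, Gstt2, Sod3, Prdx6, Gclc, Gsr and Hmox1, so these were not searched. Bases outside the windows were not searched for any gene, so a core further away would be missed. Of the windows themselves 10 of 55 held it, 18.2%, against 12.4% of 32851, and the median share of G and C was 57.0% in these 55 windows and 52.7% in all windows. A match is a description of the letters and not a bound site. The 10 stretches are given with the core in capitals, read in the direction of the core:
Gclm: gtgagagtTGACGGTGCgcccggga
Sod1: cctgagtcTGACCACGCccaccttg
Txnrd1: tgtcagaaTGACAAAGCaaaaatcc
Srxn1: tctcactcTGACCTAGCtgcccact
Nfe2l2: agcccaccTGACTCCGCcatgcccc
Prdx1: acgggggaTGACTCAGCgctttccc
Gstm5: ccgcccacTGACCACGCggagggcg
Gsta3: ctcaggcaTGACATTGCatttttct
Gstm7: tgaagaccTGACAAAGCgaagccaa
Mgst1: ccgcctccTGACCGTGCcaagcccc

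These stretches lie (GRCm38.p6) at chr3:122245415-122245439 for Gclm, chr16:90220698-90220722 for Sod1, chr10:82859106-82859130 for Txnrd1, chr2:152105544-152105568 for Srxn1, chr2:75704887-75704911 for Nfe2l2, chr4:116685458-116685482 for Prdx1, chr3:107895804-107895828 for Gstm5, chr1:21240456-21240480 for Gsta3, chr3:107931727-107931751 for Gstm7 and chr6:138140463-138140487 for Mgst1, on the minus strand except for Gstm5 and Gsta3. Of the measured genes that carry the core, leaving out Gstm7, the changes ran from -0.58 for Gclm to 0.24 for Gsta3, on both sides of 0. Gstm7 was at 0.66, and at -0.11 in the authors' deposited value table. Gstm5 and Sod1 share the core TGACCACGC, with changes of 0.19 and -0.28, neither of which passed. Gstm7 and Txnrd1 share TGACAAAGC. The printed windows of Gstk1 and Gstm1, with the 2 most negative changes, held no core.

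The wider redox pathway was read from 4 further lists of 76 genes, of which 73 were measured. Of these 3 were lower and 0 higher at an adjusted p under 0.05, or 4.11% against 1.18% of all genes (0.640% lower and 0.535% higher). The 15 genes at an unadjusted p under 0.05 are 20.5% of the 73, near the 21.1% of all genes. Of them 12 were lower, 16.4% against 6.51% of all, and 3 were higher, 4.11% against 14.6% of all. The median change was -0.05, against 0.08 for all genes. Of the 73 genes, 62 lay among the 12886 of higher signal. Of those 12886, 14.3% had an unadjusted p under 0.05, 8.96% lower and 5.37% higher, and their median change was 0.0048. The part of brightness in these counts was not tested. Msrb1 and Txnl1 belong to the list of thioredoxin, glutaredoxin and methionine sulfoxide reduction. Msrb1, a selenoprotein that reduces oxidised methionine, gave 1.53, 1.82 and 1.40 in the circHIPK3 siRNA arrays, against 2.66, 2.46 and 2.77 in the siGFP arrays (-1.05 ± 0.14 SE, adjusted p = 0.0345). Txnl1, a thioredoxin-like protein of the proteasome, gave -0.80, -0.87 and -0.74 in the circHIPK3 siRNA arrays, against -0.20, -0.32 and -0.22 in the siGFP arrays (-0.56 ± 0.09 SE, adjusted p = 0.0489). In NADPH supply, Idh2, the mitochondrial isocitrate dehydrogenase that feeds NADPH to the glutathione and thioredoxin systems, gave 3.48, 3.67 and 3.50 in the circHIPK3 siRNA arrays, against 4.24, 4.20 and 4.19 in the siGFP arrays (-0.66 ± 0.10 SE, adjusted p = 0.0389). The groups did not overlap for any of the 3. On the first slide alone the 3 changes were -1.10, -0.55 and -0.74, and none passed (adjusted p = 0.165, 0.265 and 0.177). Each call was also lost on leaving out any array other than circHIPK3 siRNA replicate 1.

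Of 17 measured genes of glutathione handling and 28 NRF2 partners, targets and stress sensors, none passed. The gene with the lowest p in the first was Ggt5, which cleaves extracellular glutathione conjugates, at -5.24, -5.55 and -4.94 in the circHIPK3 siRNA arrays, against -3.75, -4.97 and -3.63 in the siGFP arrays. The circHIPK3 siRNA replicate 3 and siGFP replicate 2 arrays crossed (-1.12 ± 0.35 SE, adjusted p = 0.149). In the second it was Osgin1, a gene induced by oxidative stress, at -0.83, -0.88 and -0.89 in the circHIPK3 siRNA arrays, against 0.02, -0.56 and -0.02 in the siGFP arrays (-0.68 ± 0.16 SE, adjusted p = 0.0909), with no overlap.

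The calls were few enough for the analysis settings to decide some of them. Gstk1 passed in 10 of 19 alternative settings, Gstm1 in 6, Gclm in 4 and Gstm7 in 4 of the 18 in which its probe was kept. Where Gstk1 did not pass with more than 1 array per treatment, the test called 0 of all genes. The exception was the fit without circHIPK3 siRNA replicate 2, which called 1 gene, not Gstk1. Gstk1 stayed between -1.66 and -1.44, Gstm1 between -1.03 and -0.73 and Gclm between -0.69 and -0.52 in all 19. Not all of these are separate checks of the change. The other filters, the test of all probes, the trend and robust variance and the replicate block left the fitted change of these genes as it was. The fixed slide block and the first slide alone gave the same change as each other. The directions of calls over all genes also moved with scaling, at 165 lower and 138 higher here, 218 and 44 with quantile normalization, 402 and 203 with median scaling, 241 and 38 with normexp, and 151 and 34 in the authors' deposited value table.

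**Figure D5:**
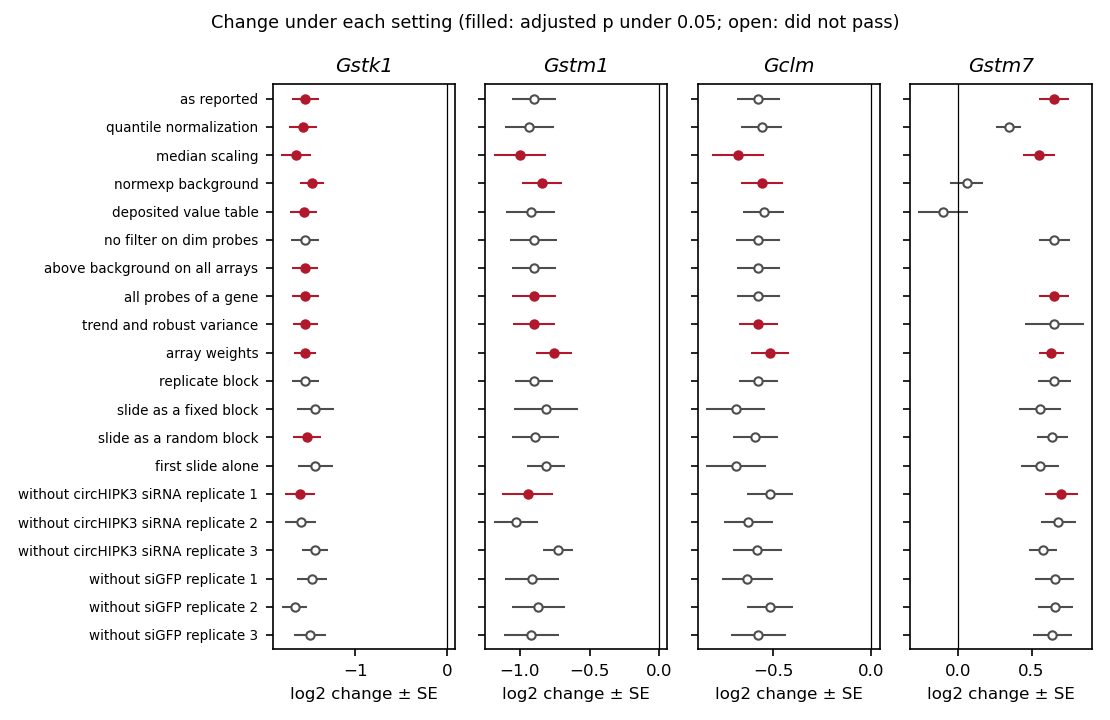
Log2 change (circHIPK3 siRNA minus siGFP, with SE bars) of 4 genes in the reported analysis and under 19 alternative settings, filled where the adjusted p was under 0.05. Gstk1, Gstm1 and Gclm stay below 0 in every setting, and Gstm7 lies between -0.11 and 0.70.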

How the data were processed

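Total RNA of 6 MIN6B1 samples was labelled with 1 dye and hybridised to Agilent mouse arrays (labels' protocols). Per the file headers, the deposited files give each spot's intensity after background subtraction. The submitters' processing notes name Agilent Feature Extraction 11.0.1.1. A deposited table of log2 values (31868 probes, column medians 9.7965 to 9.7968, correlation with the scanner intensities 0.9999 or above) served as an alternative, and the normalization the authors applied to it is not given in the sources used here.

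The log2 processed intensity minus each array's 75th percentile over 43020 non-control spots was used. Outlier spots were dropped, spots of a probe averaged, and a probe needed to be detected above background on all 3 arrays of a treatment (31371 of 39429). Accessions in the files were matched to RefSeq names (GRCm38.p6), which gave 27228 probes a symbol. The files' own grid names another build, so coordinates are given only for RefSeq promoter windows. The brightest probe stood for a gene. The test was limma 3.58.1 (R 4.3.3), with treatment as the only term, and p-values were adjusted by Benjamini and Hochberg's method over 25772 genes and unnamed transcripts, with a threshold of 0.05. A two-sided exact permutation test (scipy 1.17.1) was added for single genes, and figures used matplotlib 3.10.9.

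The 48 genes, the lists and the tests were chosen with earlier results of these data known. Full values are given for genes past the threshold, for the gene with the lowest p in each role with 2 or more measured genes, and likewise in the 4 redox lists. Alternatives changed the scaling, the background correction, the filter, the probe choice, the variance model, array weights, and replicate and slide blocks, or left out each array. Normexp (offset 50) took the median foreground, as the planned mean was not among the columns used here. Deviations of arrays with the same replicate number correlated at -0.0155, 0.273 and -0.127, so the numbers were not taken as pairs. With 6 arrays, their number limits the precision. The result of 1 cell type marker list is not reported here.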

Additional observations from a re-analysis of the deposited data

How the results depend on the processing

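Against 303 genes called over all, 2 among the 45 antioxidant genes and 3 among the other redox genes, the counts in this order were 262, 1 and 3 with quantile normalization, 605, 4 and 5 with median scaling, 279, 3 and 4 with normexp, and 185, 1 and 3 in the deposited value table. With probes required above background on all 6 arrays they were 239, 1 and 3, with all probes tested 350, 3 and 3, with trend and robust variance 630, 3 and 6, with array weights 1805, 4 and 7, and with slide as a random block 125, 1 and 2. By limma all 3 counts were 0 with no filter on dim probes, with the replicate block, with slide as a fixed block and on the first slide alone, where 5631, 5133, 2675 and 2871 genes had an unadjusted p under 0.05. Leaving out 1 array gave 0 to 1736, 0 to 3 and 0 to 4 calls, and the highest counts came without circHIPK3 siRNA replicate 1, which puts the treatments on separate slides, so that these calls cannot be told apart from a slide difference. The median change of the 45 genes relative to all genes was -0.15, -0.10 with quantile normalization, -0.11 in the deposited value table, and -0.22 to -0.15 with 1 array left out. Gstm7 reversed to -0.11 in the deposited value table (adjusted p = 0.773). The cause of these differences was not tested, and the fits that left out an array also had fewer arrays. The replicate block took Gstk1 to an adjusted p of 0.0853 with the same change of -1.55. With signals of several antioxidant genes near background (Gstm7, Mgst2, Gstt3), differences there are limited by detection, and a change that did not pass is not shown to be absent.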
